A study of Mus musculus with 12 samples.

Results

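The genes described here encode the nuclear side of the mitochondrial respiratory chain and ATP synthase. They were taken from the count table by symbol: every gene off the mitochondrial chromosome named Nduf (letters a, b, c, s or v and a digit), Sdha to Sdhd, Uqcr, Cox4 to Cox8 or Atp5, leaving out symbols that contain -ps. This gave 88 of the 53715 genes, of which 40 belong to complex I, 4 to complex II, 8 to complex III, 19 to complex IV and 17 to complex V. Of these, 86 had enough counts to be tested, among 19815 tested genes. Cox6a2 and Cox8b did not. RNA was sequenced from spermatogonia sorted from mouse testes, C57BL6/129 strain, with 1000 cells per library, by Smart-seq2, which amplifies whole-length cDNA from little input. The 4 groups were Tet1KO at 11 months, WT at 11 months, Tet1KO at 3 months and WT at 3 months of age, with 3 libraries each. The labels give neither whether replicate libraries stem from different animals nor which part of Tet1 was deleted or in which cells, so p-values measure the spread between these libraries, which may be technical.

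Complexes I to IV pass electrons from NADH and succinate to oxygen, complexes I, III and IV pump protons as they do so, and complex V (ATP synthase) uses the proton gradient to make ATP. Most subunits are encoded in the nucleus, translated in the cytosol and imported, and a core set is encoded in mitochondrial DNA. Spermatogonia are held to rely largely on glycolysis, respiration gains weight as germ cells differentiate, and later germ cells switch on testis forms of some complex IV subunits.

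The name rule does not select only true subunits, and the annotation showed where. Ndufa11b, Ndufb4c, Ndufs6b and Cox6c2 are annotated as processed pseudogenes, intronless copies of Ndufa11, Ndufb4, Ndufs6 and Cox6c. Their transcripts matched those of the parent genes at 94.8%, 100%, 96.6% and 97.0% of aligned bases, so their counts cannot be cleanly told from the parents' and are uncertain. Atp5s (coupling factor B) and Cox7a2l (a factor of respiratory supercomplexes) are not regarded as core subunits, and Ndufa4 was named for complex I but is now placed with complex IV. Among the 8 symbols left out for -ps, Ndufb1-ps had 1259 to 4316 counts per library and the others at most 209. The exons of 27 members overlap another gene, and since counting ignored strand and gave a fragment to every gene it touched, their counts hold some of that gene's reads. The overlap covered 39.0% of the exon bases of Ndufb6 (with Smim27) and 29.98% of those of Ndufa13 (with Tssk6).

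Promoter sequences are shown because nuclear respiratory genes are known for shared binding motifs of NRF1, of ETS factors such as GABP and of YY1, and because many of the members moved together between libraries. RefSeq promoters (GRCm38.p6, 250 bases before to 50 after the start) were matched for 68 of the 88 members, 2 of them through a synonym. The stretches below are the 100 bases before the start, 5′ to 3′ on the gene's strand, with motif matches on either strand in capitals. The first 4 hold the NRF1 core CGCATGCG, which reads alike on both strands, and the next 2 hold the ETS core CCGGAAG, written CTTCCGG where it lies on the other strand.
Atp5k, chr5:108434400-108434499 (minus strand): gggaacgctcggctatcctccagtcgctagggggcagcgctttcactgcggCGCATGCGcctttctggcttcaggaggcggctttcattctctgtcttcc
Atp5g2, chr15:102671048-102671147 (minus strand): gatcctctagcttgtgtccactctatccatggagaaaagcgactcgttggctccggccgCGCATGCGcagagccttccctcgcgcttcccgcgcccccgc
Ndufa11, chr17:56717662-56717761 (plus strand): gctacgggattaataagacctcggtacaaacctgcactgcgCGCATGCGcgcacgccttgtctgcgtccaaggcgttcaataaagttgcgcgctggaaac
Ndufa8, chr2:36049339-36049438 (minus strand): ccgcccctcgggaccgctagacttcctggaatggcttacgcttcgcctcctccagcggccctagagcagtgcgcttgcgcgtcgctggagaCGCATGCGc
Uqcr11, chr10:80406822-80406921 (minus strand): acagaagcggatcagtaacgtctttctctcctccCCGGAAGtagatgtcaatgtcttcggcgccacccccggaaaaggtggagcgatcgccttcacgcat
Cox6b1, chr7:30626115-30626214 (minus strand): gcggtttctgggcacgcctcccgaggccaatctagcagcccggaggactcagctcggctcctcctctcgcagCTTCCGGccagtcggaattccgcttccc
The last 3 are the testis form Cox6b2, whose common form Cox6b1 stands just above, the testis form Cox7b2 and its common form Cox7b. In these stretches no exact match to any of the 3 motif cores was found, and other forms of the motifs were not searched for there.
Cox6b2, chr7:4753095-4753194 (minus strand): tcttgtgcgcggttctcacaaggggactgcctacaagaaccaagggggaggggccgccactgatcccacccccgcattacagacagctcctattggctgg
Cox7b2, chr5:71548206-71548305 (minus strand): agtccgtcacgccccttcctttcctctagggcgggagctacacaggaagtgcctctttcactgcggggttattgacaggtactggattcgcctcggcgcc
Cox7b, chrX:106015600-106015699 (plus strand): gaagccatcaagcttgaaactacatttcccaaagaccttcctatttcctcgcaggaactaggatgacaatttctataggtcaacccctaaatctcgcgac
The NRF1 core was found in 9 of 68 member promoters (13.2%), against 2.07% of the promoters of all 27025 genes in the table. The ETS core was found in 16 (23.5%, against 9.93%), and the YY1 core AAGATGGC in 10 (14.7%, against 3.19%). Atp5j, Atp5k, Atp5l, Cox6a1 and Uqcr11 held both the NRF1 and the ETS core. A match is a stretch of letters, not a measured binding site.

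Total counts ran from 8325159 to 18223645 per library. The 4 germ cell markers summed to 2581 to 4069 CPM (counts scaled to library size) per library, the leukocyte markers to 34.5 to 553 CPM and the spermatid markers to 275 to 2673 CPM. Sertoli markers (8) summed to 17.4 to 19.1 CPM in Tet1KO and 7.78 to 59.9 CPM in WT at 11 months, and to 13.9 to 41.9 CPM in Tet1KO and 58.2 to 162 CPM in WT at 3 months. Leydig markers (4, of which Cyp17a1 and Hsd3b1 were at 0 in most libraries) summed to 2.17 to 5.17 CPM in Tet1KO and 4.67 to 6.62 CPM in WT at 11 months, and to 5.68 to 13.2 CPM in Tet1KO and 4.001 to 4.46 CPM in WT at 3 months. Peritubular myoid markers (4) summed to 22.8 to 53.1 CPM in Tet1KO and 67.8 to 228 CPM in WT at 11 months, and to 73.8 to 351 CPM in Tet1KO and 92.2 to 337 CPM in WT at 3 months. Spermatocyte markers (7 of 7 with counts in every library) summed to 1100 to 2392 CPM in Tet1KO and 1320 to 1882 CPM in WT at 11 months, and to 1674 to 3047 CPM in Tet1KO and 1499 to 3492 CPM in WT at 3 months. Undifferentiated spermatogonia markers (8) summed to 121 to 247 CPM in Tet1KO and 122 to 211 CPM in WT at 11 months. At 3 months they summed to 147 to 243 CPM in Tet1KO and 112 to 191 CPM in WT. Differentiating spermatogonia markers (5) summed to 469 to 1324 CPM in Tet1KO and 820 to 1143.5 CPM in WT at 11 months. At 3 months they summed to 572 to 1341 CPM in Tet1KO and 826 to 1081 CPM in WT. Tet1 had 1, 17 and 5 counts in Tet1KO and 1, 16 and 5 in WT at 11 months, and 6, 11 and 18 in Tet1KO and 15, 16 and 0 in WT at 3 months, so it does not check the labels.

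Together the 88 genes took 3.26% of all counts on average over the 12 libraries, between 2.78% and 4.16%. Complex I took 1.23%, complex V 0.878%, complex IV 0.666%, complex III 0.365% and complex II 0.118%. Levels are given as TPM, counts per kilobase of the exon length in the deposited table, scaled to the same sum in each library. The highest member of complexes I, III, IV and V was a small accessory or membrane subunit. In complexes I, III and V the core or catalytic subunits named below stood under it. The median over the tested members of a complex was taken in each library and averaged over the 12 libraries, which gave 320 TPM for complex I, 242 for complex II, 657 for complex III, 543 for complex IV and 289 for complex V. With the length of the principal transcript in place of all exons these averages were 513 TPM for complex I, 796 for complex III, 1027 for complex IV and 913 for complex V, so an order of levels between genes depends on the length used.

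In complex I, Ndufa1, a small membrane subunit, was highest with 2727 ± 612 TPM (SD over 12 libraries), and Ndufa2, an accessory subunit of the NADH-oxidising arm, followed with 2164 ± 373 TPM. These ranges overlap. The core subunits were lower: Ndufv1, which binds NADH and FMN, had 91.7 ± 26.0 TPM, Ndufs7, which carries the last iron-sulphur cluster before ubiquinone, had 218 ± 34.7 TPM, and Ndufs1, the largest iron-sulphur subunit, had 42.3 ± 5.43 TPM. At the bottom stood the pseudogene Ndufa11b with 3.26 ± 2.47 TPM and Ndufa4l2, a hypoxia-inducible relative of Ndufa4, with 1.61 ± 0.991 TPM. In complex II, the iron-sulphur subunit Sdhb had 479 ± 55.5 TPM and the membrane anchor Sdhd 366 ± 65.9 TPM, while the anchor Sdhc had 118 ± 25.2 and the flavoprotein Sdha 74.3 ± 9.42 TPM.

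In complex III the small subunit Uqcr11 stood at 2602 ± 388 TPM and the hinge protein Uqcrh at 1127 ± 221 TPM, above the Rieske iron-sulphur protein Uqcrfs1 at 250 ± 19.0 TPM and the core proteins Uqcrc2 at 204 ± 29.0 and Uqcrc1 at 149 ± 51.2 TPM. In complex IV, Cox6a1 (2463 ± 353 TPM) and Cox4i1 (1591 ± 126 TPM), the common forms of 2 nuclear subunits, were highest, and Cox5b, a zinc-binding subunit, had 813 ± 91.9 TPM. The lowest tested were Cox7a1, the heart and muscle form, with 19.3 ± 5.04 TPM and Cox4i2, the hypoxia and lung form, with 2.05 ± 1.28 TPM. In complex V, Atp5mpl, a small membrane protein of the synthase, had 1316 ± 278 TPM and the central stalk subunit Atp5c1 1099 ± 101 TPM, while the catalytic beta subunit Atp5b had 276 ± 73.3 and the alpha subunit Atp5a1 231 ± 51.2 TPM. Atp5l (112 ± 19.3 TPM), a membrane subunit, and Atp5s (80.8 ± 11.5 TPM) were lowest.

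**Figure D1:**
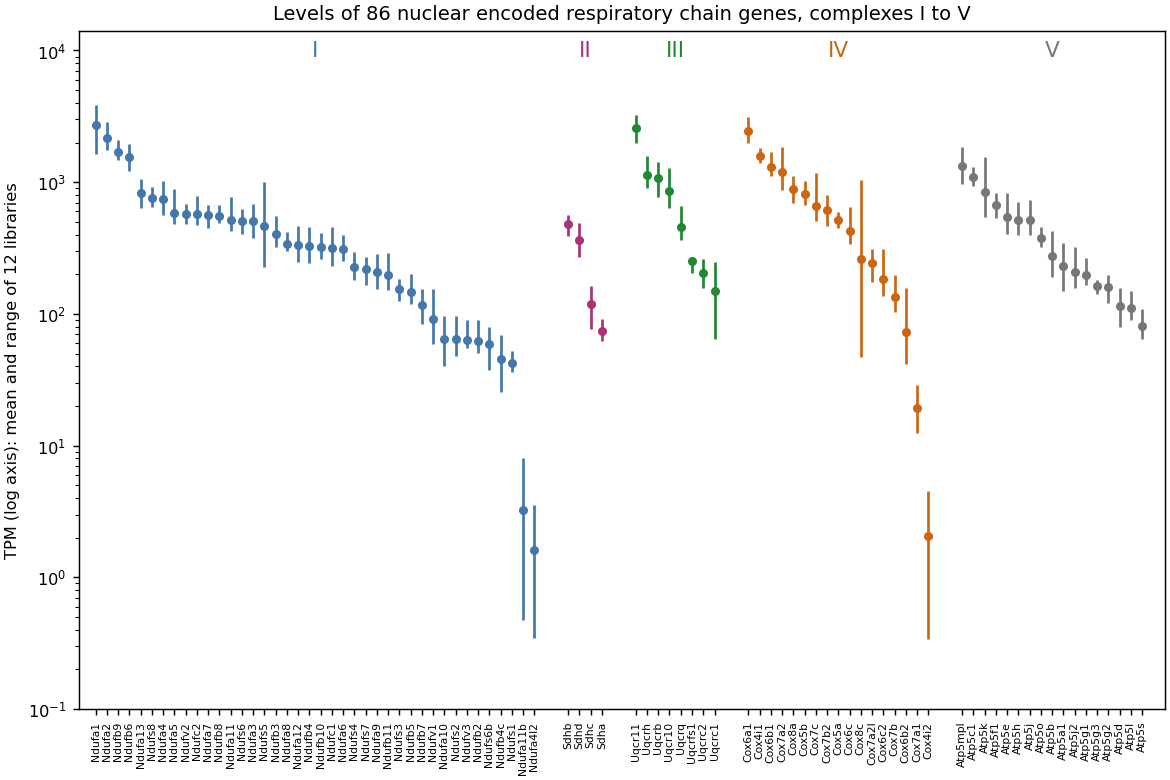
Mean TPM (log axis) of the 86 tested genes as points, with the range over 12 libraries as lines, ordered by level within complexes I to V. Ndufa1 (2727 TPM), Uqcr11 (2602), Cox6a1 (2463) and Ndufa2 (2164) stand highest, and Ndufa11b, Ndufa4l2 and Cox4i2 below 10.

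Of the testis forms of complex IV, Cox7b2 exceeded its common form Cox7b in every library, and Cox6b2 and Cox8c were the minor form in most. Cox7b2 (chromosome 5, 71442824 to 71548205, mm10) stood at 576, 468 and 778 TPM in Tet1KO and 544, 496 and 596 TPM in WT at 11 months, and at 549, 725 and 549 TPM in Tet1KO and 761, 540 and 798 TPM in WT at 3 months. Cox7b stood at 117, 133 and 196 TPM in Tet1KO and 138, 104 and 144 TPM in WT at 11 months, and at 126, 120 and 112 TPM in Tet1KO and 134, 147 and 156 TPM in WT at 3 months. Cox7b2 thus made up 80.3 ± 2.69% of the pair in Tet1KO and 81.0 ± 1.55% in WT at 11 months, and 83.4 ± 2.24% in Tet1KO and 82.4 ± 3.37% in WT at 3 months (SD, n = 3 each). The groups overlapped. The transcripts of the 2 genes matched at 68.3% of 249 aligned bases.

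Cox8c (chromosome 12, 102899316 to 102900526), the testis form of subunit VIII, was set apart by 2 libraries of 3 months. It stood at 67.0, 191 and 111 TPM in Tet1KO and 47.0, 95.2 and 92.3 TPM in WT at 11 months, and at 105, 1005 and 116 TPM in Tet1KO and 1041, 196 and 94.4 TPM in WT at 3 months. In replicate 2 of Tet1KO and replicate 1 of WT at 3 months it exceeded its common form Cox8a, with 52.9% and 55.2% of the pair, against 5.57% to 17.5% in the other 10 libraries. Cox6b2 (chromosome 7, 4751792 to 4753094), the testis form of a subunit that docks cytochrome c, had its 2 highest values in the same 2 libraries. It stood at 41.5, 78.2 and 60.3 TPM in Tet1KO and 53.9, 51.9 and 66.7 TPM in WT at 11 months, and at 44.7, 149 and 52.4 TPM in Tet1KO and 157, 63.9 and 60.3 TPM in WT at 3 months, against 1106 to 1701 TPM of Cox6b1. Ldhc, the lactate dehydrogenase of meiotic germ cells, stood at 1590 CPM in replicate 2 of Tet1KO and 1545 CPM in replicate 1 of WT at 3 months, against at most 292 CPM elsewhere. The spermatocyte markers summed highest in the same 2 libraries, but that sum includes Ldhc. Of its other markers, Pgk2 was also highest there, at 167 and 184 CPM. Sycp3 was not, at 841 and 1144 CPM, against 2100 CPM in replicate 3 of WT at 3 months. Replicate 2 of Tet1KO and replicate 1 of WT at 3 months also had counts for 30010 and 29420 genes, against at most 26995 in the others. The part of these measures in the Cox8c and Cox6b2 values was not tested, and in bulk libraries more cells of a type and more RNA per cell cannot be told apart. Cyct, the testis cytochrome c, reached 79.9 CPM and 83.8 CPM in the same 2 libraries and was higher still in replicate 3 of WT at 3 months, against at most 47.3 CPM in the other 9.

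Of the forms known from other tissues, Cox8b, Cox6a2, Cox4i2 and Ndufa4l2 were at or near the detection limit, and Cox7a1 was low but above it. Cox8b, a muscle form, had 0 counts in all 12 libraries, where a count of 0 allows up to 3 counts (0.165 to 0.36 CPM, counting error only). Cox6a2, the heart and muscle form, had 0 to 1.74 CPM, Cox4i2 0.167 to 1.88 CPM and Ndufa4l2 0.219 to 2.05 CPM. Cox7a1 had 42 to 104 counts per library and made up 1.58% to 1.66% of its pair with Cox7a2 in the 4 group means.

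**Figure D2:**
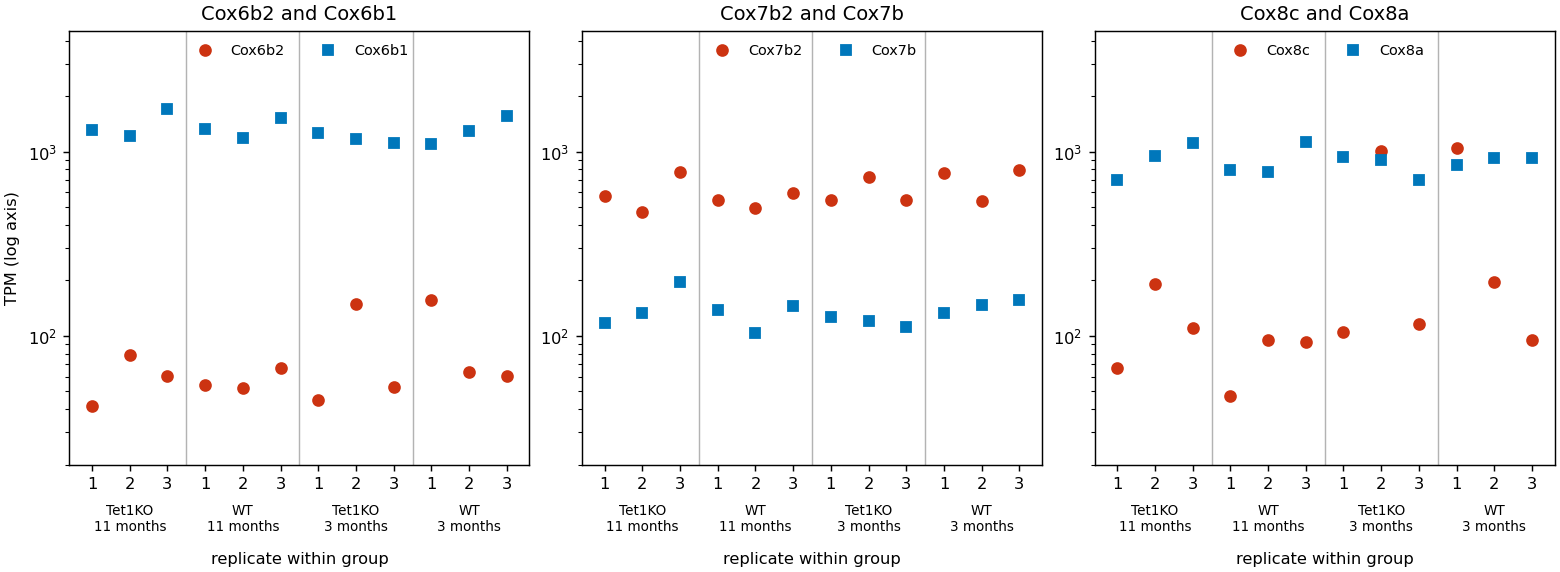
TPM (log axis) of the testis form (circles) and the common form (squares) of 3 complex IV subunits in each of the 12 libraries, by group and replicate. Cox7b2 lies above Cox7b throughout, and Cox8c reaches Cox8a in replicate 2 of Tet1KO and replicate 1 of WT at 3 months.

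Many members shared a swing between libraries that crossed both genotypes. Each gene was set against its own mean log2 CPM over the 12 libraries, and the median deviation of the 86 members was taken per library. It was -0.01, -0.42 and 0.55 in replicates 1, 2 and 3 of Tet1KO and 0.06, -0.37 and 0.29 in WT at 11 months, and -0.09, -0.13 and -0.08 in Tet1KO and -0.05, -0.12 and 0.46 in WT at 3 months. At 11 months replicate 2 was low and replicate 3 high in both genotypes. At 3 months only replicate 3 of WT stood apart. Of the 86 members, 41 had their highest value in replicate 3 of Tet1KO at 11 months and 18 in replicate 3 of WT at 3 months, and 51 had their lowest in replicate 2 of Tet1KO and 17 in replicate 2 of WT at 11 months. The summed level of the 88 genes was 32364, 23990 and 45710 CPM in Tet1KO and 33895, 26098 and 38908 CPM in WT at 11 months, and 30146, 29409 and 30556 CPM in Tet1KO and 31386, 29574 and 43805 CPM in WT at 3 months.

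**Figure D3:**
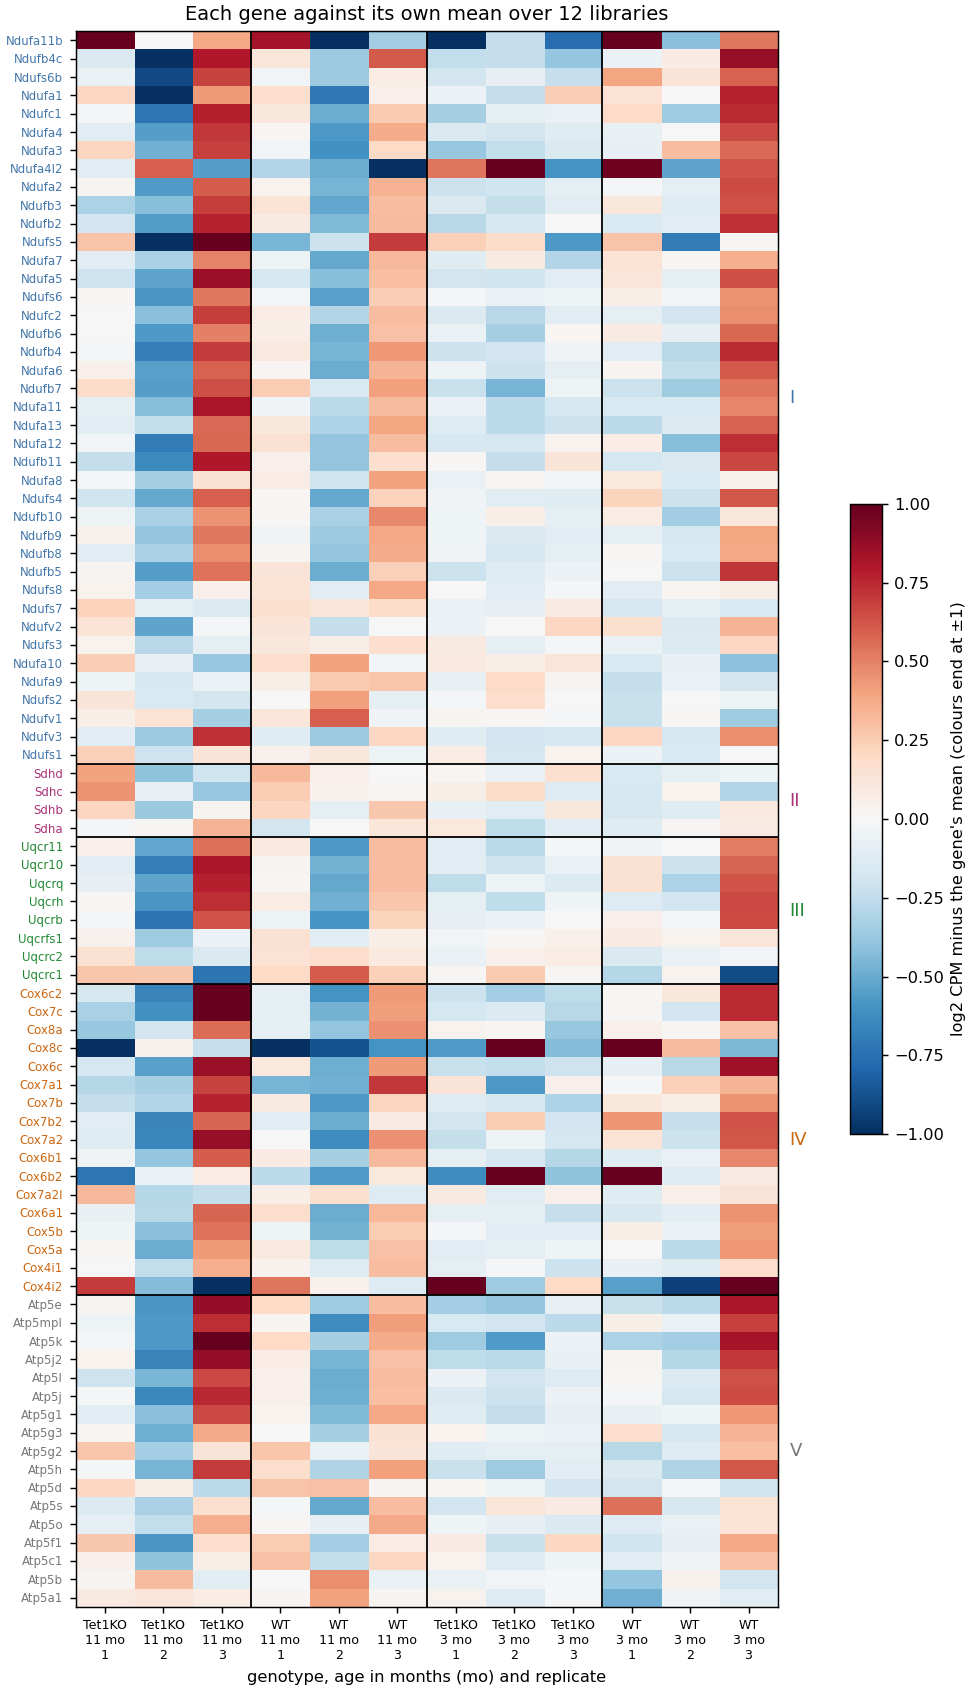
Colour gives log2 CPM minus the gene's mean over 12 libraries for the 86 tested genes (rows, by complex and within it by rising coding length from the top, genes without one first) in each library (columns). Replicate 3 of both genotypes at 11 months and replicate 3 of WT at 3 months are red for most small subunits, and replicate 2 at 11 months is blue. Complex II and most of the longest genes follow less or not at all.

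Complexes I, III, IV and V shared this swing and complex II did not. In replicates 2 and 3 of Tet1KO at 11 months the median deviation was -0.45 and 0.55 for complex I, -0.52 and 0.59 for complex III, -0.38 and 0.58 for complex IV and -0.46 and 0.38 for complex V, against -0.22 and -0.09 for complex II. In replicate 3 of WT at 3 months it was 0.53, 0.55, 0.45 and 0.38 for complexes I, III, IV and V, and 0.02 for complex II. Examples are Cox7c, a small membrane subunit of complex IV, with 308, 253 and 829 CPM in Tet1KO and 360, 277 and 516 CPM in WT at 11 months, and Atp5k, a small membrane subunit of complex V, with 261, 179 and 596 CPM in Tet1KO and 306, 211 and 344 CPM in WT at 11 months. Ndufs5, an accessory subunit of complex I, had the largest SD of log2 CPM (0.69) among complex I members above 10 TPM, with 241, 85.8 and 533 CPM in Tet1KO and 144, 170 and 321 CPM in WT at 11 months, and 233, 225 and 133 CPM in Tet1KO and 240, 122 and 199.5 CPM in WT at 3 months.

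The swing differed between members with short and with long coding sequences. The 61 tested members with a coding length under 600 bases had median deviations of -0.02, -0.50 and 0.60 in Tet1KO and 0.05, -0.46 and 0.31 in WT at 11 months, and of -0.12, -0.17 and -0.10 in Tet1KO and 0.00, -0.14 and 0.58 in WT at 3 months. The 21 members of 600 bases or more had 0.05, -0.24 and -0.01 in Tet1KO and 0.12, 0.06 and 0.12 in WT at 11 months, and -0.01, -0.08 and 0.01 in Tet1KO and -0.14, -0.07 and 0.07 in WT at 3 months. The median SD of log2 CPM over the 12 libraries was 0.39 for the short and 0.20 for the long members. Across the 82 members with a coding length, the correlation of log2 length with the deviation was 0.36, 0.50 and -0.55 in Tet1KO and 0.20, 0.77 and -0.21 in WT at 11 months, and 0.31, -0.02 and 0.41 in Tet1KO and -0.30, 0.12 and -0.62 in WT at 3 months. It was weak in replicate 3 of WT at 11 months, where the members were high, and reached 0.41 in replicate 3 of Tet1KO at 3 months, where their median was near 0. These are correlations across genes of 1 library, which share its depth and cDNA preparation, and genes are not replicates. Over all 14804 tested genes with a coding length the same correlations lay between -0.093 and 0.125 in the 12 libraries.

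Genes outside the respiratory chain bore the swing in part. The 83 cytosolic ribosomal protein genes, which are also short and abundant, had median deviations of -0.12, -0.33 and 0.63 in Tet1KO and 0.04, -0.33 and 0.30 in WT at 11 months, and 0.49 in replicate 3 of WT at 3 months. All tested genes with a coding length under 600 bases moved less, with -0.18 and 0.10 in replicates 2 and 3 of Tet1KO at 11 months and 0.11 in replicate 3 of WT at 3 months. The 17 genes of the citric acid cycle stood at -0.02 and -0.06 in replicates 2 and 3 of Tet1KO at 11 months and -0.12 in replicate 3 of WT at 3 months, and the 81 tested mitochondrial ribosomal protein genes at -0.37, 0.25 and 0.21 in those 3 libraries. In replicates 2 and 3 of Tet1KO at 11 months and replicate 3 of WT at 3 months, the undifferentiated spermatogonia markers summed to 247, 185 and 112 CPM. The differentiating ones summed to 469, 659 and 1081 CPM and the spermatocyte markers to 1100, 2392 and 2835 CPM there. The spermatocyte sum was highest in replicate 1 of WT at 3 months, where the members were near their mean. The part of cell composition, RNA quality or library preparation in the swing was not tested. Members with and without promoter motifs had like medians: the 29 tested members with any of the 3 motifs and the 38 with none had median deviations of 0.56 and 0.56 in replicate 3 of Tet1KO at 11 months, -0.46 and -0.42 in replicate 2 of Tet1KO at 11 months, and 0.48 and 0.43 in replicate 3 of WT at 3 months.

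**Figure D4:**
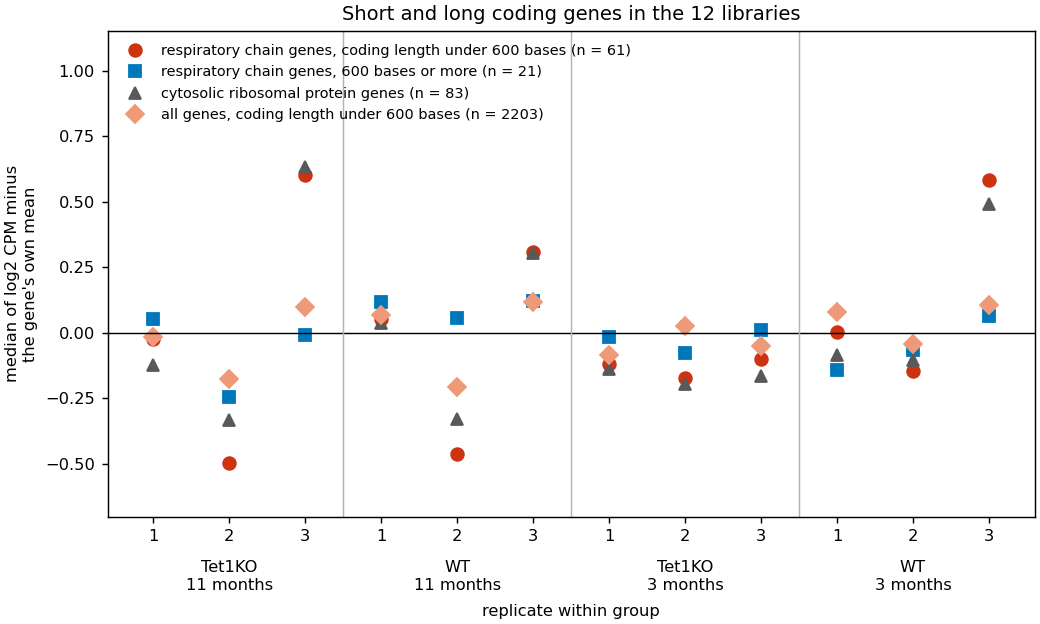
Median of log2 CPM minus the gene's own mean in each library, by group and replicate, for short and long respiratory chain genes, cytosolic ribosomal protein genes and all short genes. The short respiratory chain genes reach 0.60 in replicate 3 of Tet1KO at 11 months and 0.58 in replicate 3 of WT at 3 months, where the long ones stay at -0.01 and 0.07.

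Uqcrc1, a core protein of complex III encoded on chromosome 9 (108936633 to 108949623), ran against the swing, as did Ndufv1 and Ndufa10 to a smaller extent. It stood at 375, 374 and 187 CPM in Tet1KO and 356, 472 and 365 CPM in WT at 11 months, and at 312, 371 and 313 CPM in Tet1KO and 255, 318 and 167 CPM in WT at 3 months. Its lowest values lay in replicate 3 of Tet1KO at 11 months and replicate 3 of WT at 3 months, where the short subunits were highest. In replicate 3 of Tet1KO at 11 months its deviation was -0.73, beside -0.34 for Ndufv1 and -0.38 for Ndufa10, and in replicate 3 of WT at 3 months, where all 3 genes were lowest, it was -0.89, beside -0.36 and -0.41. Uqcrfs1 of the same complex was among the steadiest genes, with 187, 142 and 175 CPM in Tet1KO and 202, 168 and 191 CPM in WT at 11 months, and 178, 183 and 188 CPM in Tet1KO and 192, 186 and 198 CPM in WT at 3 months. Ndufs1 had the smallest SD of log2 CPM of all members (0.13), and Cox8c the largest (1.41).

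The first question of the design is what loss of Tet1, an enzyme that oxidises methylated cytosine in DNA, does at each age. At 11 months no member passed the threshold between Tet1KO and WT. By edgeR's quasi-likelihood test with Benjamini-Hochberg adjustment at 0.05, 0 of 86 members were called, and the share called over all genes was 0%. DESeq2 called 3 genes and limma-voom 0, with 0 members each. At an unadjusted p under 0.05 stood 1 member (1.16%), against 1.65% of all genes. Of the 86 members, 55 (64%) were higher and 31 (36%) lower in Tet1KO, against 53.8% and 46.2% of all genes, with a median log2 fold change of 0.08, against 0.02 over all genes. The median turned to -0.24 without replicate 3 of Tet1KO, to -0.10 without replicate 2 of WT and to -0.10 with limma-voom, and was 0.27 without replicate 2 of Tet1KO. By pairs of the same replicate number, Tet1KO minus WT had a median over members of -0.07, -0.14 and 0.25 log2 CPM in pairs 1, 2 and 3, so the pairs did not share a direction, and with the pairs as a block the median fold change was 0.03. Of the 83 cytosolic ribosomal protein genes, 68 were higher and 15 lower in Tet1KO, with a median of 0.12. Of all 2203 tested genes with a coding length under 600 bases, 1087 were higher and 1116 lower. The peritubular myoid markers were lower in every Tet1KO library than in every WT library at this age, and their part in these values was not tested.

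The member with an unadjusted p under 0.05 at 11 months was Ndufa9, an accessory subunit next to the ubiquinone site of complex I (chromosome 6, 126821721 to 126849136). It had 224, 206 and 220 CPM in Tet1KO libraries, against 240, 276 and 279 CPM in WT libraries, so the groups did not overlap. The log2 fold change was -0.29 ± 0.12 (SE), with an unadjusted p of 0.0380 and an adjusted p of 1 by edgeR. Ndufs3, a core subunit of complex I, was the other member whose groups did not overlap, with 184, 149 and 169 CPM in Tet1KO libraries, against 194, 187 and 202 CPM in WT libraries, and a log2 fold change of -0.22 ± 0.13. These 2 make 2.33% of the tested members, against 2.54% of all genes with every Tet1KO library below every WT library. No member had every Tet1KO library above, against 2.82% of all genes. Of the 21 long members, 18 had a log2 fold change below 0, among them Uqcrc1 (-0.35 ± 0.28), Ndufv1 (-0.28 ± 0.18), Ndufa10 (-0.24 ± 0.17), a large accessory subunit, and Uqcrc2 (-0.21 ± 0.13), and the median of the 21 was -0.16, beside 5779 of all 12601 tested long genes below 0 and a median of 0.02. The largest values upward belonged to Ndufa4l2 (0.83 ± 0.75), Ndufa11b (0.77 ± 0.88) and Cox8c (0.60 ± 1.01), and downward, beside Uqcrc1 and Ndufa9, to Cox4i2 (-0.36 ± 0.89), which all had an adjusted p of 1.

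At 3 months the members were lower in Tet1KO on balance, with none past the threshold, and the balance rested largely on 1 WT library. Of 86 members, 0 were called by edgeR, against 0% of all genes, and 0 stood at an unadjusted p under 0.05, against 1.14% of all genes. DESeq2 called 2 genes and limma-voom 0, neither of them members. Lower in Tet1KO were 68 members (79.1%), against 53.2% of all genes, and 18 were higher, against 46.8%, and the median log2 fold change was -0.27, against -0.02 over all genes. Without replicate 3 of WT the median was 0.0036, with 45 members higher and 42 lower of the 87 then tested. With limma-voom, which gives libraries weights by their spread, the median was -0.12, with 24 members higher and 62 lower. By complex, 31 of 40 members of complex I, 6 of 8 of complex III, 16 of 17 of complex IV and 14 of 17 of complex V were lower, with medians of -0.28, -0.30, -0.30 and -0.19, and 3 of 4 of complex II were higher, with a median of 0.09. The lean was not particular to the members. Of the 83 cytosolic ribosomal protein genes, 76 were lower and 7 higher, with a median of -0.33. Of all 2203 tested genes with a coding length under 600 bases, 1465 were lower and 738 higher, with a median of -0.12. At this age the Sertoli markers were lower and the Leydig markers higher in every Tet1KO library than in every WT library, and their part in these values was not tested.

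The members at the ends of this comparison show the split by length. Ndufa3, a small membrane subunit of complex I, had 208, 229 and 246 CPM in Tet1KO, set beside 256, 336 and 401 CPM in WT, with a log2 fold change of -0.54 ± 0.29 and an adjusted p of 0.999996 by edgeR. It was 1 of 10 members whose every Tet1KO library lay below every WT library, against 3.62% of all genes. The others were Atp5g1, Atp5mpl, Cox7b, Ndufa2, Ndufa4 and Ndufa5 and the pseudogenes Cox6c2, Ndufb4c and Ndufs6b, all short or without a coding length. In the other direction stood 2 long members (2.33%, against 3.32% of all genes). Ndufa10 had 119, 117 and 121 CPM in Tet1KO libraries, against 101, 106 and 83.9 CPM in WT libraries, with a log2 fold change of 0.30 ± 0.17. Ndufs7 had 188, 187 and 209 CPM in Tet1KO libraries, against 176, 186 and 178 CPM in WT libraries. The pseudogenes Ndufa11b (-1.84 ± 0.92), Ndufb4c (-0.65 ± 0.44) and Cox6c2 (-0.61 ± 0.40) had the lowest fold changes and Uqcrc1 (0.43 ± 0.28), Cox4i2 (0.32 ± 0.90) and Ndufa10 the highest. Across the 82 members the correlation of the fold change with log2 coding length was -0.58 at 11 months and 0.72 at 3 months, against 0.02 and 0.07 over all 14804 genes with a coding length. A trend of each library on coding length was also removed, fitted over all tested genes with a coding length and not over the members alone. The median over the 82 members with a coding length was then 0.07 at 11 months and -0.12 at 3 months, and by age it was 0.11 in Tet1KO and -0.07 in WT.

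**Figure D5:**
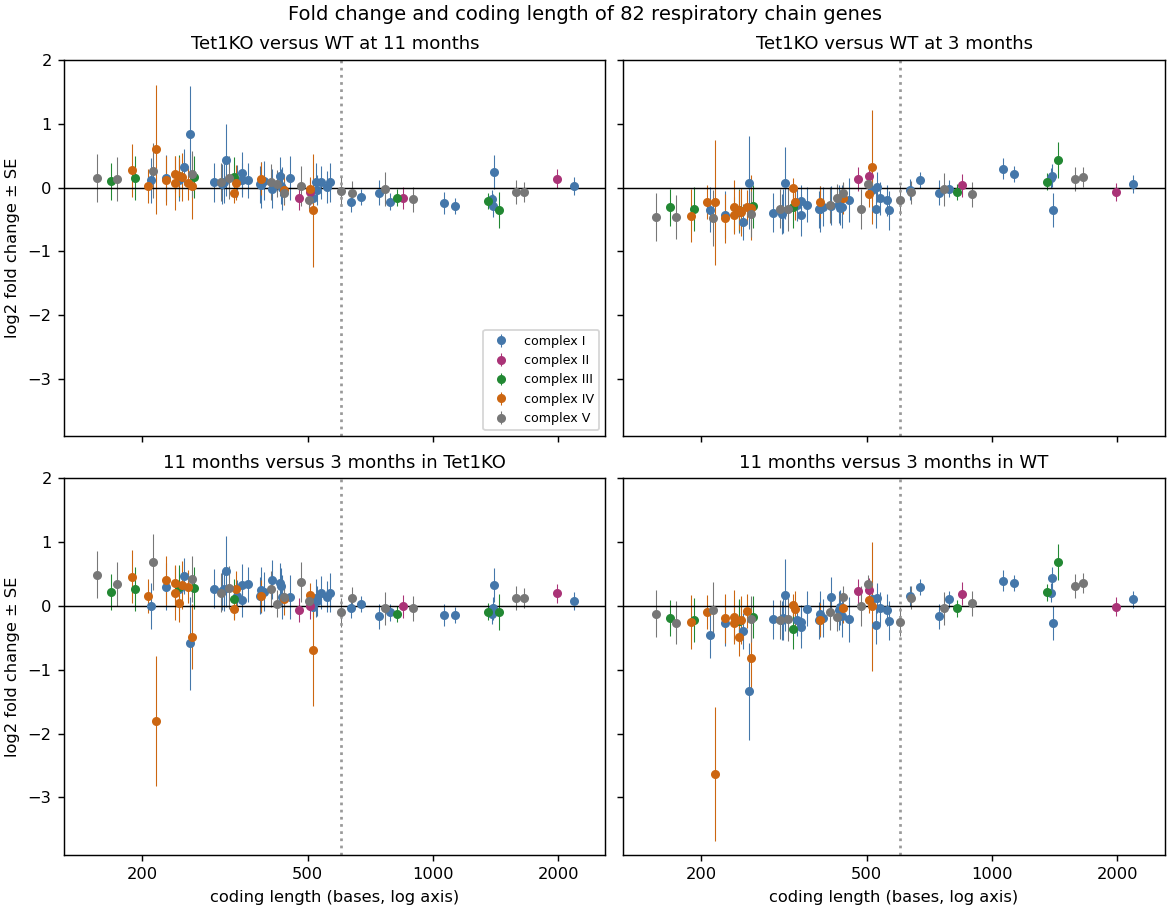
Log2 fold change with SE (vertical axis) against coding length (log axis, bases) of the 82 members with a coding sequence, coloured by complex, for the 4 comparisons, with a dotted line at 600 bases. In the comparison of Tet1KO with WT at 3 months the short genes lie mostly below 0 and the long ones near or above it, and at 11 months the order is the other way round.

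The second question is what changes between 3 and 11 months. In Tet1KO, 0 of 86 members were called at 11 months against 3 months by edgeR, where 0% of all genes were, and 0 stood at an unadjusted p under 0.05, against 2.33% of all genes. DESeq2 called 7 genes and limma-voom 0, none of them members. At 11 months 64 members were higher (74.4%, against 48% of all genes) and 22 lower (against 52%), with a median log2 fold change of 0.16, against -0.01 over all genes. Without replicate 3 of Tet1KO at 11 months the median was -0.11, and without replicate 2 of that group 0.39. Of the 83 cytosolic ribosomal protein genes, 79 were higher and 4 lower at 11 months, with a median of 0.29. The Leydig and the peritubular myoid markers were lower in every Tet1KO library of 11 months than in every one of 3 months, and their part in these values was not tested. Atp5k (0.69 ± 0.44), Ndufs5 (0.54 ± 0.56) and Ndufa3 (0.47 ± 0.29) were among the largest upward values, and Ndufs5 was at -0.26 without replicate 3 of Tet1KO at 11 months. Atp5a1 had 403, 411 and 399 CPM at 11 months, against 388, 347 and 373 CPM at 3 months, and it and the pseudogene Ndufa11b were the 2 members (2.33%, against 3.1% of all genes) with every library of 11 months above, and no member had every one below (against 3.09%). Sdha, the catalytic subunit of complex II, had 162, 164 and 206 CPM at 11 months, against 175, 137 and 151.1 CPM at 3 months, with a log2 fold change of 0.20 ± 0.15.

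In WT most long members had higher values at 11 months and most short ones lower values, again with no call. By edgeR 0 of 86 members were called, where 0% of all genes were, and DESeq2 and limma-voom called 0 genes. At an unadjusted p under 0.05 stood 8 members (9.3%), against 5.67% of all genes. They were Ndufa9, Ndufa10, Ndufs7, Ndufv1, Uqcrc1, Atp5a1 and Atp5d, the delta subunit of the central stalk, all higher at 11 months, and Cox8c, lower. Ndufa9 had 240, 276 and 279 CPM at 11 months, against 195, 220 and 202 CPM at 3 months, a log2 fold change of 0.37 ± 0.12 with an unadjusted p of 0.0132 and an adjusted p of 0.774 by edgeR. Uqcrc1 had 356, 472 and 365 CPM at 11 months, against 255, 318 and 167 CPM at 3 months, a log2 fold change of 0.69 ± 0.28 (adjusted p = 0.774). Ndufv1 had 130, 180 and 117 CPM at 11 months, against 102, 121 and 93.2 CPM at 3 months (0.43 ± 0.18), and these groups overlapped. Atp5d had 141, 142 and 118 CPM at 11 months, against 102, 115 and 100.5 CPM at 3 months (0.34 ± 0.14). With every library of 11 months above stood 8 members (9.3%, against 5.42% of all genes), namely Atp5a1, Atp5d, Ndufa10, Ndufa9, Ndufs7, Sdhd, Uqcrc1 and Uqcrc2, and 2 stood below, Cox8c and Ndufs6b (2.33%, against 6.12%). Without replicate 1 of WT at 3 months 0 members had an unadjusted p under 0.05, and without replicate 2 of WT at 11 months 1 had.

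Lower at 11 months were 60 of 86 (69.8%, against 56.4% of all genes) and 26 were higher (against 43.6%), with a median log2 fold change of -0.14, against -0.06 over all genes. The median was 0.15 without replicate 3 of WT at 3 months, 0.03 without replicate 2 of WT at 11 months and 0.04 with limma-voom. Of the 21 long members 15 were higher, with a median of 0.16, beside 6010 of all 12601 tested long genes (median -0.02). Of the 61 short members 50 were lower, with a median of -0.19, beside 1389 of all 2203 tested short genes (median -0.11). Of the 83 cytosolic ribosomal protein genes, 61 were lower and 22 higher, with a median of -0.11. The Leydig markers were higher in every WT library of 11 months than in every one of 3 months, and their part in these values was not tested. Cox8c had the lowest log2 fold change in both genotypes, -1.80 ± 1.02 in Tet1KO (adjusted p = 0.999871) and -2.64 ± 1.05 in WT (adjusted p = 0.774) by edgeR. Without the library of 3 months that stood highest in each genotype, replicate 2 of Tet1KO and replicate 1 of WT, the fold change was 0.13 ± 0.39 in Tet1KO and -0.97 ± 0.39 in WT. Cox6b2 stood at -0.48 ± 0.51 in Tet1KO and -0.81 ± 0.51 in WT, and Ndufa4l2 at -1.34 ± 0.75 in WT from counts near the detection limit.

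The difference of the Tet1KO effect between the ages was tested as an interaction. By edgeR 0 of 86 members were called, where 0% of all genes were, and DESeq2 and limma-voom called 0 genes. At an unadjusted p under 0.05 stood 2 members (2.33%), against 1.57% of all genes. They were Ndufa9, with a log2 difference of -0.51 ± 0.18, and Ndufa10, with -0.54 ± 0.24, both at an adjusted p of 0.999959 by edgeR. Ndufa10 had 133, 106 and 85.8 CPM in Tet1KO libraries, against 126, 147 and 109 CPM in WT libraries at 11 months, where the groups overlapped. The difference was above 0 for 63 members (against 55.6% of all genes) and below 0 for 23 (against 44.4%). The median over members was 0.37, against 0.06 over all genes, 0.10 without replicate 3 of WT at 3 months, -0.03 without replicate 3 of Tet1KO at 11 months and 0.23 with the length trend removed. For the 83 cytosolic ribosomal protein genes the difference was above 0 in 76 and below 0 in 7, with a median of 0.43. The 4 genotype and age comparisons share groups, so their values are not independent.

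The rest of the pathway gave no call either. Of the 13 subunits encoded in mitochondrial DNA, 8 had a log2 fold change above 0 in Tet1KO at 11 months (median 0.10), against 53.8% of all genes. In Tet1KO at 3 months 12 had one below 0 (median -0.25), against 53.2% of all genes. All 13 were lower at 11 months than at 3 months in WT (median -0.44), against 56.4% of all genes. Of these, 3 had an unadjusted p under 0.05 by edgeR, against 5.67% of all genes. Each of these comparisons had 0 calls by edgeR. Among 47 assembly factors, 18 were higher and 29 lower in Tet1KO at 11 months, and 20 were higher and 27 lower at 3 months, with medians of -0.05 and -0.06. Among 13 tested regulators of mitochondrial biogenesis, 6 were higher at 11 months and 4 at 3 months in Tet1KO, with medians of -0.0034 and -0.05. Of the 17 genes of the citric acid cycle, 4 were higher in Tet1KO at 11 months and 14 at 3 months, with medians of -0.06 and 0.11. Of the 18 electron carrier genes, 5 were higher at 11 months and 9 at 3 months, with medians of -0.09 and 0.0022. Cycs, the somatic cytochrome c, had 342, 234 and 499 CPM in Tet1KO and 395, 275 and 465 CPM in WT at 11 months, and 367, 326 and 397 CPM in Tet1KO and 427, 365 and 590 CPM in WT at 3 months, with an adjusted p of 1 at 11 months and 0.999996 at 3 months for Tet1KO against WT by edgeR.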

How the data were processed

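RNA was measured in 12 libraries of sorted mouse spermatogonia in 4 groups of 3. The deposited values are raw counts of fragments, as integers, with a column for each library and no scaling. Per the file headers, fragments were counted over exons with featureCounts 1.6.2 and GENCODE release 17 of mouse, without strand, at a mapping quality of at least 30, with multimapping fragments admitted and overlapping ones counted for each gene. Build mm10, HISAT2 and SAMtools are named, the tools without versions, per the submitters' processing notes. Symbols and coding lengths came from GENCODE release 21, matched on the identifier, with symbols for 53620 of 53715 genes. The coding length is that of the principal protein-coding transcript (lowest APPRIS rank, then longest), and a gene without one has none.

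Total counts of 8325159 to 18223645 per library set the precision, and Smart-seq2 reads carry no molecular identifier. Libraries of a group differed by at least 10.9 in chi-square per degree of freedom, more than sampling noise gives, and each was counted once. Counts were tested with edgeR 4.0.16 in R 4.3.3 (filterByExpr, TMM, robust quasi-likelihood F test, two-sided, Benjamini-Hochberg over all 19815 genes at 0.05), with all 12 libraries in 1 fit and the comparisons as contrasts. The SE of a log2 fold change was derived from the F statistic. log2 CPM used a prior count of 2. The procedure was tested on simulated data, with counts drawn independently for each gene and so without a swing that genes of a library share. The members, lists and rules were chosen with earlier results of these data known. Members named are the isoform pairs, the 2 highest and the lowest per complex by TPM, the 3 largest and smallest fold changes and up to 5 smallest p per comparison, and fixed core subunits. The library examples Cox7c, Ndufs5 and Atp5k, Uqcrc1, Ndufv1 and Ndufa10 as members that ran against them, the members Ndufa11b, Sdhc, Sdhd, Uqcrc2, Atp5l and Cox7a1 and members whose groups do not overlap were chosen after their values were seen.

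That libraries of equal replicate number belong together is an assumption, since no label gives a pairing. At 11 months deviations from the group means correlated over genes at 0.37, 0.17 and 0.33 in pairs 1, 2 and 3. At 3 months these correlations were -0.59, -0.18 and 0.30, and Tet1KO replicate 2 with WT replicate 1 reached 0.71. The deviations of the 3 libraries in a group sum to 0, so these correlations cannot decide the pairing. Alternatives were other scaling and filters, DESeq2 1.42.0, limma-voom (limma 3.58.1), each library left out, only libraries with AK codes, the groups compared alone and the replicate block. Removing a coding-length trend (lowess, span 0.3, over all tested genes with a coding length) and the length of the principal transcript were chosen after seeing the data.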

Additional observations from a re-analysis of the deposited data

How the results depend on the processing

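In no alternative was a member called. DESeq2 in place of edgeR called 2 genes for Tet1KO against WT at 3 months, 3 at 11 months and 7 between the ages in Tet1KO. Leaving out each library in turn moved the median log2 fold change of members between -0.24 and 0.27 for Tet1KO against WT at 11 months, between -0.36 and 0.0036 at 3 months, between -0.11 and 0.39 for the ages in Tet1KO, between -0.29 and 0.15 for the ages in WT and between -0.029 and 0.56 for the difference of the Tet1KO effect. The fits with the replicate number as a block changed no call, with medians of 0.03 at 11 months, -0.24 at 3 months, 0.12 and -0.12 for the ages in Tet1KO and WT, and 0.30 for the difference. Replicate 1 of Tet1KO and replicate 2 of WT at 3 months have library codes that begin with DY, all others with AK. The labels do not say what the codes mean. With AK codes only, the medians were 0.06 at 11 months and -0.37 at 3 months. They were 0.18 and -0.25 for the ages in Tet1KO and WT, and 0.45 for the difference. Of 1089 alternatives for single named genes 9 reversed, and for all of these the cause was not tested. Cox4i2, near the detection limit, turned in Tet1KO against WT at 3 months to -0.30, -0.00273 and -0.08 without Tet1KO replicate 1, WT replicate 1 and WT replicate 2 of that age (range over left-out libraries -0.30 to 1.505) and to -0.69 with only libraries whose code begins with AK, at 11 months to 0.086 without Tet1KO replicate 3 (-1.35 to 0.086), and in the difference to 0.32 with AK codes only. Between the ages in Tet1KO, Cox8c turned to 0.12 without replicate 2 of 3 months (-2.23 to 0.12) and to 0.13 with replicate 1 of WT left out as well, and Ndufs5 to -0.26 without replicate 3 of 11 months (-0.26 to 0.98). The principal transcript's length moved the median TPM to 513, 796, 1027 and 913 in complexes I, III, IV and V. The NRF1 letters GCATGCGC, which overlap the core, was in 10 of 68 promoters, against 9 for the core. With 3 libraries per group and a spread of 0.34 log2 CPM between libraries of a group in the members' median, that no member was called does not show that there is no shift between groups. A shift of the members as a set was not tested.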
